A study of Citrullus lanatus with 6 samples.

Results

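Abscisic acid (ABA) is the hormone through which plants answer a loss of water, and its core signaling chain is short. PYR/PYL receptors bind ABA and then block protein phosphatases of type 2C (PP2C), which in the absence of the hormone hold SnRK2 protein kinases inactive. Once released, SnRK2 kinases phosphorylate ABF proteins, transcription factors of the bZIP family that switch on ABA-responsive genes. The PP2Cs are thus the brakes of the chain and the ABFs its output, and in Arabidopsis the transcripts of several PP2C genes of this kind are themselves raised by ABA.

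The 7 genes described here are 6 PP2C genes (ClCG03G001230, ClCG07G013870, ClCG05G008820, ClCG05G007620, ClCG03G016180 and ClCG11G006670) and 1 ABF gene, ClCG09G014130, which is annotated as ABSCISIC ACID-INSENSITIVE 5-like protein 1. They are all the genes with hormone ABA and class PP2C or ABF in the study's table of hormone signaling genes, and all 7 are among the 23568 genes with deposited values. That table was selected on the difference between the salt and control libraries used here, as differentially expressed genes. Levels, fold changes and counts of the 7 genes between treatments are therefore descriptions and carry no test. PP2C genes that the study did not list, and the clade to which each of the 6 belongs, were not analysed here.

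The libraries came from leaves of six-week-old seedlings of watermelon (*Citrullus lanatus*) cv. Crimson Sweet. Plants of both treatments were taken out of their medium, had their roots rinsed, and then stood for 7 h in tubes of 300 mM NaCl (salt) or of deionized water (control), so that this handling is shared. Each treatment has 3 libraries, named by the replicate number of the labels, from plants that are described as independent. The sample titles and a stress label call the treated plants drought-stressed, whereas the protocol label, the growth protocol and the methods give salt, and salt is used here.

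Sequencing depth was similar in both treatments, with 18979423 to 20118169 fragments behind the values of the salt libraries and 18838185 to 21258223 behind those of the control libraries. Values are FPKM, which corrects fragment counts for the length of the gene and the depth of the library. All 8 photosystem genes checked as markers of green leaf were detected in every library, the weakest at 17.0 to 53.4 FPKM in salt and 65.2 to 216 FPKM in control libraries. Fold changes are differences of log2(FPKM + 0.5), salt minus control, and are too small for weak genes because of the added 0.5. Over the 16638 genes tested, whose mean reached 0.5 FPKM, the median log2 fold change was -0.57, so a gene at 0 on this scale stood above most others. When libraries were scaled by median ratios, that median was -0.05. As deposited, 28.5% of the genes called by limma were higher and 71.5% lower in salt, against 51.7% higher and 48.3% lower after that scaling. In bulk leaf, fewer cells of a type and less RNA per cell cannot be told apart.

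All 6 PP2C genes had higher mean FPKM in salt-treated leaves than in control leaves, with log2 fold changes of 1.14 to 2.89. The ABF gene differed least, with a log2 fold change of 0.39. The difference in absolute level was largest for the most abundant genes, ClCG03G001230 and ClCG07G013870, and the ratio of means was largest for ClCG05G007620. The groups did not overlap for 5 of the 6 PP2C genes, and overlapped for the strongest PP2C gene and for ABF. For comparison, 17.7% of all genes tested had all salt libraries above all control libraries.

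**Figure D1:**
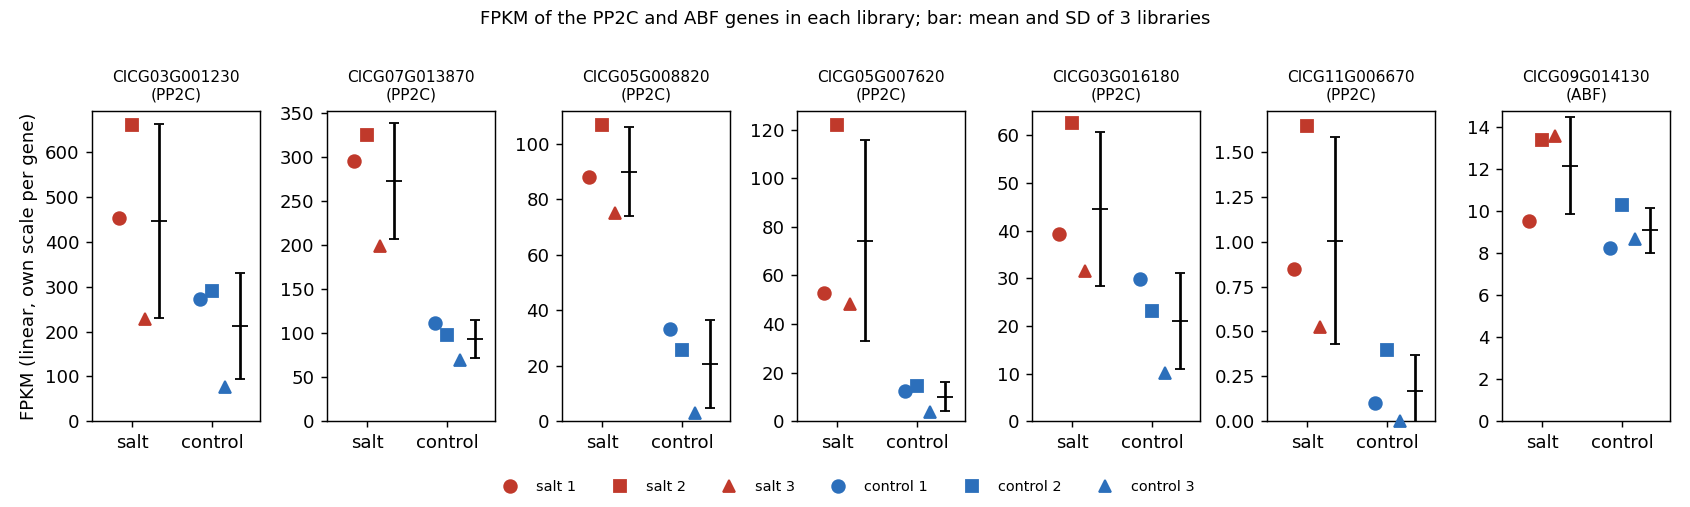
FPKM (vertical axis, linear, a separate scale for each gene) of the 6 PP2C genes and the ABF gene in the 3 salt (red) and 3 control (blue) libraries, with the symbol giving the replicate number and the black bar the mean and SD of 3 libraries (the SD of ClCG11G006670 in control is cut at 0). In every PP2C panel salt replicate 2 is the highest of all libraries and the triangles of replicate 3 are the lowest of their group, whereas the ABF values lie between 8.23 and 13.6 FPKM in all libraries.

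ClCG03G001230, a protein phosphatase 2C and the most abundant of the 7 genes, had 453, 661 and 228 FPKM in salt replicates 1 to 3, against 272, 290 and 77.0 FPKM in control replicates 1 to 3. Salt replicate 3 lay below control replicates 1 and 2, so the groups overlapped, although within each replicate number salt was the higher. After median-ratio scaling they did not overlap, at 475, 953 and 259 scaled FPKM in salt and 225, 231 and 59.7 in control. The means were 447 ± 216 FPKM in salt and 213 ± 118 FPKM in control leaves (SD, n = 3 each), and the log2 fold change was 1.16, with a standard error of 0.585. These values rest on 7212 to 19889 fragments per library in salt and 2277 to 9695 in control, so counting error is small beside the spread between libraries. The fold depended on single libraries, with a log2 fold change of 0.54 without control replicate 3 and 1.58 without salt replicate 3.

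ClCG07G013870, the next in abundance, had 295, 325 and 199 FPKM in the salt replicates, against 112, 98.0 and 69.5 FPKM in the control replicates. Every salt library stood above every control library, and the control libraries lay closer together than for any other of the 6 PP2C genes, with a coefficient of variation of 24.3% in salt and 23.1% in control. The log2 fold change was 1.54 (standard error 0.291), and leaving out any 1 library moved it only between 1.35 and 1.76. In absolute level its mean was 180.1 FPKM higher in salt, beside 234 FPKM for ClCG03G001230, and both exceeded the differences of the other PP2C genes.

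ClCG05G008820, described as a putative protein phosphatase 2C, had 88.2, 107 and 75.0 FPKM in the salt replicates, against 33.3, 25.6 and 2.87 FPKM in the control replicates. The salt libraries lay close together, whereas control replicate 3 was 11.6 times below the highest control library. This was the widest spread among those of the 7 genes that were above 0 in all libraries. The log2 fold change was 2.64 (standard error 0.777), and it was 1.59 without control replicate 3 and 1.72 without both libraries numbered 3. The low value of control replicate 3 rests on 81 fragments.

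ClCG05G007620, of the protein phosphatase 2C family, had the largest ratio of means. It had 52.6, 122 and 48.3 FPKM in the salt replicates, against 12.3, 14.5 and 3.57 FPKM in the control replicates, so that each salt library stood well above each control library. The mean in salt was 7.32 times that in control, and the log2 fold change was 2.89 (standard error 0.555), between 2.30 and 3.24 when 1 library was left out. Among the genes of a library with a value above 0, this gene stood at percentile 86.2 to 95.0 in salt and 25.7 to 54.8 in control libraries.

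ClCG03G016180, another putative protein phosphatase 2C, had 39.4, 62.6 and 31.5 FPKM in the salt replicates, against 29.9, 23.1 and 10.1 FPKM in the control replicates. The groups nearly met, with salt replicate 3 just above control replicate 1. The log2 fold change was 1.14 (standard error 0.433), and it was 0.69 without control replicate 3.

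ClCG11G006670 was barely expressed, with 0.850, 1.65 and 0.523 FPKM in the salt replicates, against 0.101 and 0.396 FPKM in control replicates 1 and 2 and a value of 0 in control replicate 3. These are 23, 45 and 15 fragments in salt and 3, 12 and 0 fragments in control, and a count of 0 in control replicate 3 allows up to 0.112 FPKM (3 fragments, counting error only). The log2 fold change of 1.15 (standard error 0.470) depended on the pseudocount, at 2.23 with 0.1 and 0.76 with 1 in place of 0.5. It was a minor part of the phosphatase pool, at most 0.129% of the summed PP2C FPKM in salt and 0.0876% in control.

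The ABF gene ClCG09G014130, at the output end of the chain, had 9.52, 13.4 and 13.6 FPKM in the salt replicates, against 8.23, 10.3 and 8.69 FPKM in the control replicates. Salt replicate 1 lay below control replicate 2, so the groups overlapped. The means were 12.2 ± 2.29 FPKM in salt and 9.08 ± 1.09 FPKM in control leaves (SD, n = 3 each), and the log2 fold change was 0.39, with a standard error of 0.279. After median-ratio scaling the log2 fold change was 0.95, and all 3 salt libraries then stood above all 3 control libraries.

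FPKM is per length, so levels can be compared between the genes. In control leaves the order was ClCG03G001230, ClCG07G013870, ClCG03G016180, ClCG05G008820, ClCG05G007620, ABF and ClCG11G006670, at means of 213, 93.1, 21.0, 20.6, 10.1, 9.08 and 0.166 FPKM. Neighbours from ClCG03G016180 to ABF had overlapping ranges over the control libraries, as had the first 2 genes, although ClCG03G001230 was above ClCG07G013870 in each of the control libraries. In salt leaves the order was ClCG03G001230, ClCG07G013870, ClCG05G008820, ClCG05G007620, ClCG03G016180, ABF and ClCG11G006670, with overlapping ranges among the first 2 genes, between ClCG05G008820 and ClCG05G007620, and between ClCG05G007620 and ClCG03G016180. ClCG03G016180 had a lower mean than ClCG05G008820 and ClCG05G007620 in salt but not in control.

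By limma with Benjamini-Hochberg adjustment, 3 of the 7 genes were called higher in salt at an adjusted p below 0.05 (ClCG07G013870, ClCG05G007620 and ClCG05G008820) and 0 lower. Of all genes tested, 13.6% were called higher and 34.2% lower at that adjusted p. All 7 fold changes were positive, and 5 of the 7 genes had an unadjusted p below 0.05. As the 7 genes were selected on this same contrast, nothing is read from their count. With the replicate number as a block the count was 5, beside 13.7% of all genes called higher, with ClCG03G001230 and ClCG03G016180 added, since the standard error of ClCG03G001230 was 0.292 with the block against 0.585 without it. After median-ratio scaling the count was also 5, but with ClCG03G016180 and the ABF gene added, and the share of all genes called higher was then 22.4%. The call of ClCG05G008820 was lost without any 1 of the salt libraries, while its log2 fold change was 2.51 to 2.76 in those fits, beside 2.64 with all libraries. The median log2 fold change of the 7 genes was 1.16, beside -0.57 over all genes tested.

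**Figure D2:**
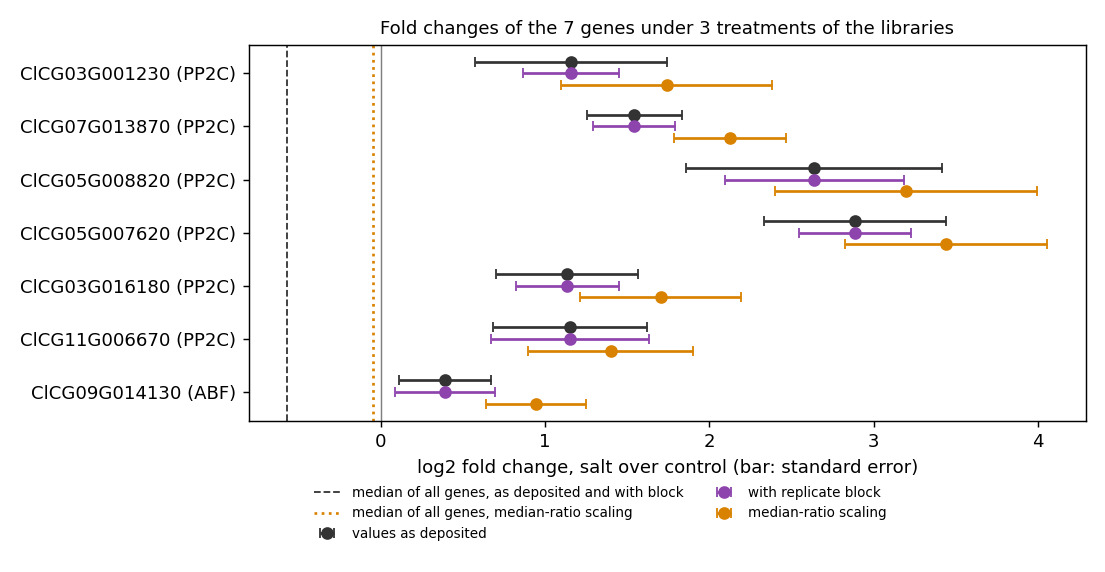
Log2 fold change of salt over control (horizontal axis, on log2(FPKM + 0.5), bar: standard error from limma) for the 7 genes with the values as deposited (black), with the replicate number as a block (purple) and after median-ratio scaling (orange). Vertical lines give 0 and the medians of all genes tested, -0.57 and -0.05, and each of the 7 genes lies to the right of 0 in all 3 fits.

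The 6 PP2C genes shared 1 order of libraries within each treatment at both ends of the salt group and at the low end of the control group. Salt replicate 2 was the highest and salt replicate 3 the lowest salt library for 6 of 6 genes, and control replicate 3 was the lowest control library for 6 of 6. The same held after median-ratio scaling. Over all genes tested, salt replicate 2 was the highest salt library for 19.8% of genes and the lowest for 53.2%, and 9.75% of the genes were lowest in both libraries numbered 3. As deposited, the ABF gene did not share this order, with its highest salt value in replicate 3 and its lowest values in the libraries numbered 1. After median-ratio scaling it shared part of it, with 9.97, 19.3 and 15.4 scaled FPKM in the salt replicates and 6.81, 8.21 and 6.73 in the control replicates, so that salt replicate 2 was its highest and control replicate 3 its lowest library. These 6 genes share their libraries, so the common order is 1 observation on each library and not 6.

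Within a replicate number, salt stood above control for each of the 7 genes. The labels do not pair the numbers, and for the 5 genes without overlap between groups this holds under any pairing. For ClCG05G007620 the FPKM in salt was 4.26, 8.40 and 13.5 times that in control for numbers 1 to 3, and for ClCG05G008820 it was 2.65, 4.17 and 26.1 times. For ClCG07G013870 it was 2.65, 3.32 and 2.86 times, the most even of the PP2C genes above 1 FPKM. For ABF it was 1.16, 1.30 and 1.56 times.

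**Figure D3:**
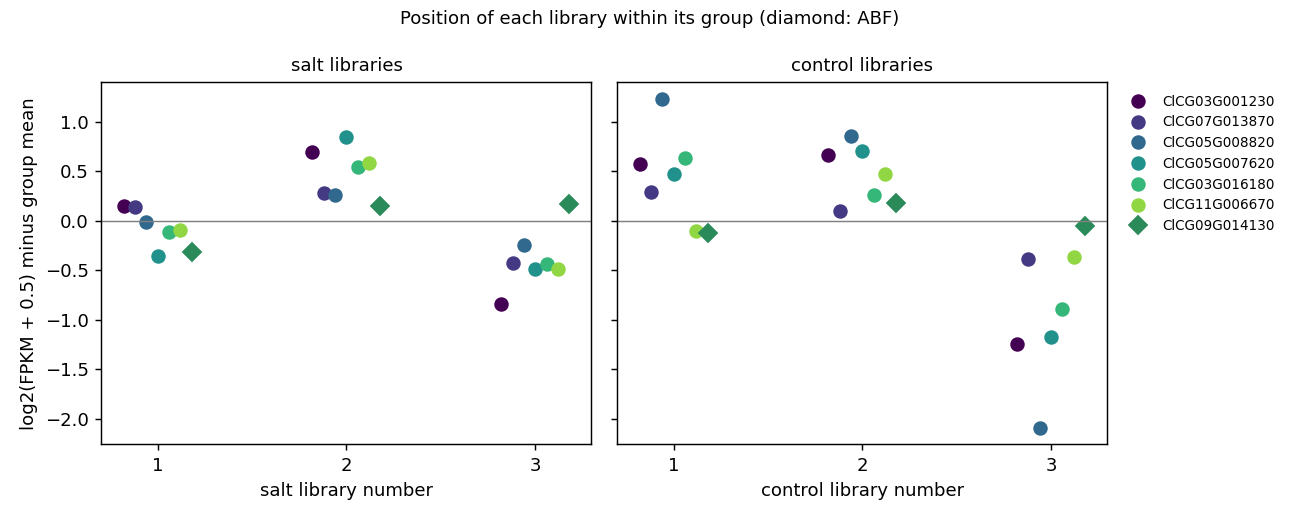
Difference of log2(FPKM + 0.5) from the mean of the group (vertical axis) for the 6 PP2C genes (circles) and the ABF gene (diamond), by replicate number, in salt (left) and in control libraries (right). The PP2C circles of replicate 3 lie below 0 in both groups and those of salt replicate 2 above 0, while the ABF diamond lies above the line in salt replicate 3.

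Other measures of the libraries followed this order only in part. The summed FPKM of the 8 photosystem genes was 1432, 374 and 1303 in salt replicates 1 to 3 and 4139, 4299 and 7013 in control replicates 1 to 3, so that the salt library with the most PP2C had the lowest photosystem sum and the control library with the least PP2C the highest, while salt replicate 3, lowest in PP2C, lay between the others. All 8 were named by the study as down-regulated in these libraries, so that their direction was fixed by that choice. They were all called lower as deposited, 7 of 8 after median-ratio scaling and 5 of 8 without the libraries numbered 3, beside 34.2% of all genes as deposited. The median ratio to the reference library was 0.955, 0.693 and 0.881 in the salt replicates and 1.21, 1.26 and 1.29 in the control replicates. The part of these differences in the PP2C values was not tested. Without both libraries numbered 3, an alternative chosen after seeing the data, 3 of the 7 genes were called higher, beside 11.3% of all genes.

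Summed over the 6 genes, PP2C expression was 930, 1279 and 582 FPKM in salt replicates 1 to 3, against 460, 452 and 163 FPKM in control replicates 1 to 3. The mean in salt was 2.60 times that in control, and all salt libraries stood above all control libraries. As a share of the FPKM of all genes, the 6 genes took 0.134%, 0.173% and 0.0812% in the salt replicates, against 0.0602%, 0.0581% and 0.0218% in the control replicates. The pool was dominated in both treatments by ClCG03G001230 and ClCG07G013870, which together made up 73.3% to 80.5% of it in salt and 83.5% to 89.9% in control libraries.

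The make-up of the pool differed between treatments as well. ClCG05G007620 held 5.66% to 9.53% of the PP2C sum in salt and 2.19% to 3.21% in control libraries, and ClCG05G008820 held 8.35% to 12.9% in salt and 1.76% to 7.25% in control. ClCG03G001230 held 39.2% to 51.7% in salt and 47.2% to 64.3% in control, with overlap. The share of ClCG07G013870, at 25.4% to 34.1% in salt and 21.7% to 42.6% in control, overlapped as well. A share is taken within a library and so does not depend on scaling.

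**Figure D4:**
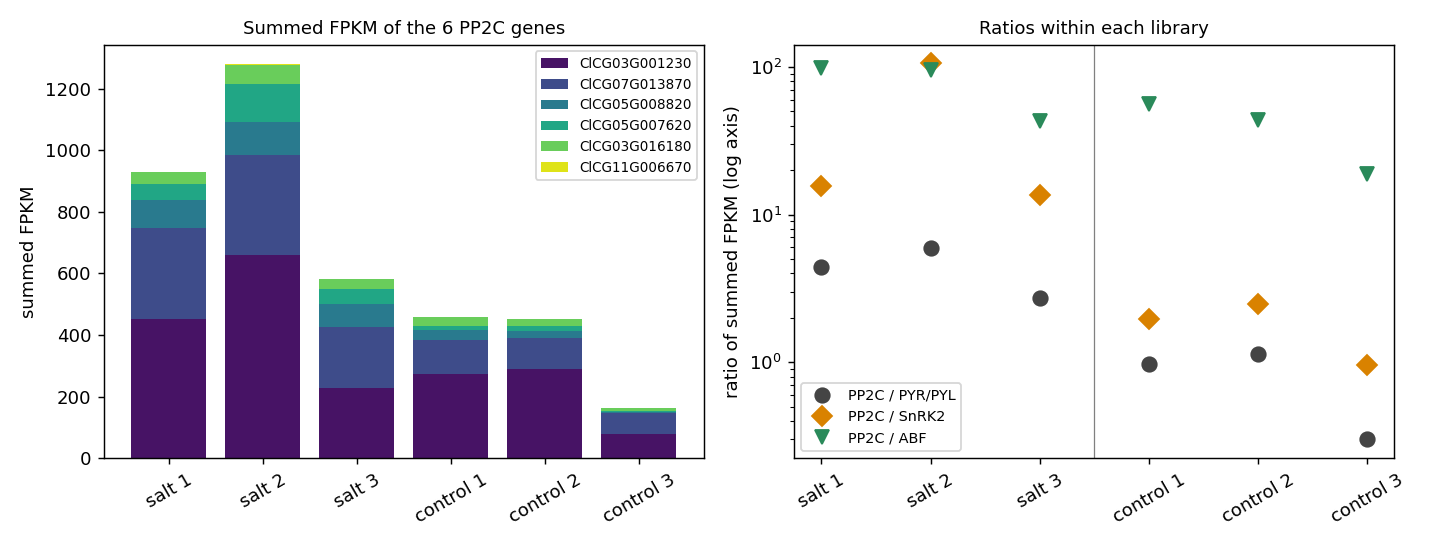
Left, summed FPKM of the 6 PP2C genes in each library (bars from 0, colours for genes), salt libraries first, at 582 to 1279 in salt and 163 to 460 in control. Right, on a log axis, the PP2C sum over the sum of the PYR/PYL receptors (circles), of the SnRK2 kinases (diamonds) and over the ABF gene (triangles) in the same library, where the first 2 ratios are higher in each salt library than in any control library and the ABF ratio overlaps.

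The other steps of the chain give the setting of these values. The study lists 6 PYR/PYL receptor genes, of which limma called 2 higher and 3 lower in salt, and 3 SnRK2 genes, all of them called lower. Of all genes tested, 13.6% were called higher and 34.2% lower. After median-ratio scaling 3 receptor genes were called higher and 3 lower, beside 22.4% of all genes called higher and 3472 of 16638 called lower. The receptor genes differed in direction, so the make-up of their sum differed between treatments. ClCG10G022420 had a mean of 138 FPKM in salt and 49.5 FPKM in control, and ClCG09G009560 one of 13.7 and 200 FPKM. The summed receptor FPKM was 210, 216 and 215 in the salt replicates, against 474, 399 and 542 in the control replicates. The PP2C sum was therefore 4.42, 5.91 and 2.71 times the receptor sum in the salt libraries, against 0.970, 1.13 and 0.301 times in the control libraries. Against the SnRK2 kinases the PP2C sum was 15.6, 105 and 13.5 times as high in the salt libraries and 1.95, 2.49 and 0.964 times in the control libraries. In contrast, the ratio of the PP2C sum to the ABF gene overlapped between treatments, at 97.7, 95.5 and 42.9 in salt and 55.8, 43.9 and 18.8 in control. These ratios are of transcripts, and only of the genes that the study listed, all of which it selected on these libraries.

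Further genes described as PP2C, which the study did not place in the ABA pathway, stand in the part of its list of up-regulated genes at hand. All 5 of them were called higher in salt, beside 13.6% of all genes tested, and the list fixes their direction. The strongest, ClCG03G000620, had 675, 755 and 362 FPKM in the salt replicates, against 17.2, 35.5 and 22.9 FPKM in the control replicates, which gives 4.53 on the log2 scale. This was above the log2 fold change of each of the 6 PP2C genes of the ABA pathway. ClCG02G020180, ClCG11G017290, ClCG05G008770 and ClCG02G006660 had log2 fold changes of 2.27, 1.86, 1.81 and 1.29. In the salt libraries these genes shared the order of the ABA pathway PP2C genes only in part. Salt replicate 2 was the highest for 4 of 5, beside 19.8% of all genes. Salt replicate 3 was the lowest for 3 of 5, beside 28.3% of all genes, and salt replicate 1 for 2 of 5. In the control libraries they did not share it, since control replicate 1, and not 3, was the lowest for 5 of 5, as it was for 38.1% of all genes.

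ABF proteins are bZIP factors, and 15 other bZIP genes are in the lists of the study, 4 of them TGA factors of salicylic acid signaling. These were selected on the same libraries. Of these, 8 were called higher and 4 lower in salt (10 and 4 with the replicate block), beside 13.6% and 34.2% of all genes tested. Their log2 fold changes ran from -3.70 to 4.23, and all lay at least 1.26 from 0, against 0.39 for the ABF gene. The study also set a cutoff on the size of fold changes, so that distance was in part fixed by the selection. The ABF gene was taken from the same selection. In the fits made here it lay below that cutoff, at 0.39 as deposited and 0.95 after median-ratio scaling. The 4 bZIP genes called lower were the TGA factors. The largest log2 fold change, 4.23, was that of ClCG11G017700, at 24.2, 25.2 and 27.1 FPKM in the salt replicates, against 0, 1.40 and 2.29 FPKM in the control replicates. ClCG11G008060, a TGA gene, had a log2 fold change of -3.70, and ClCG11G015820 one of 2.77. In the 4 TGA genes all salt libraries lay below all control libraries, as in 43.4% of all genes tested.

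From the study's list of up-regulated genes, 1 gene of ABA synthesis and 3 linked to ABA responses were also followed, and their direction is fixed by that list. ClCG03G006770 is described as a 9-cis-epoxycarotenoid dioxygenase, the kind of enzyme that makes the first committed precursor of ABA. It had 19.0, 39.8 and 23.7 FPKM in the salt replicates, against 0.250, 0.407 and 1.26 FPKM in the control replicates, a log2 fold change of 4.65. The dehydrin gene ClCG08G009610, of a family of hydrophilic proteins that are typical late products of ABA signaling, had 3772, 5053 and 1468 FPKM in the salt replicates, against 448, 398 and 499 FPKM in the control replicates. Genes described as ABA-responsive, ClCG07G015050 and ClCG01G018500, had log2 fold changes of 4.84 and 2.96. Both shared the library order of the ABA pathway PP2C genes, so that order was not confined to those phosphatases. Salt replicate 2 was their highest salt library, and replicate 3 the lowest of each group. The dehydrin gene shared the order in salt, but was lowest in control replicate 2. ClCG03G006770 was also highest in salt replicate 2, but replicate 1 was its lowest library in both groups. All 4 genes were called higher by limma, beside 13.6% of all genes tested.

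The profile of each PP2C gene over the 6 libraries was close to that of the others, with Pearson's r between a gene and the mean of the other 5 from 0.919 to 0.977, and the ABF gene had an r of 0.650 with the mean of all 6. As treatment separates the libraries, any genes that differ between treatments correlate in this way, and r is given as a description. Outside the 6 genes, the profiles most like their mean were those of ClCG10G004060, ClCG03G004880 and ClCG08G017060, at r of 0.991, 0.988 and 0.986. These are weak genes, at 1.14 to 10.8 FPKM in salt and 0 to 7.06 FPKM in control libraries. The profiles most like that of the ABF gene were those of ClCG02G003260, ClCG04G001550 and ClCG03G002730, at r of 0.997, 0.988 and 0.983. Of these 6 genes, only ClCG03G002730 has a description in the tables used here, as a glycine-rich protein.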

How the data were processed

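The deposited table holds FPKM values, which the authors calculated from gene length and uniquely mapped reads of paired-end libraries aligned to the watermelon genome of cv. Charleston Gray. The paper names Bowtie, TopHat and HTSeq, and the submitters' processing notes name fastp, HISAT2 2.1.0 and featureCounts. The sources used here do not say which pipeline gave the deposited values. All 6 libraries were used.

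Whole fragments and gene lengths were recovered for 19557 of 19557 genes with a value (whole to within 0.002 fragments or 2e-07 of the count) and serve for depth and 1 alternative. The 16638 genes whose mean reached 0.5 FPKM were fitted on log2(FPKM + 0.5) with limma 3.58.1 in R 4.3.3 (variance trend, Benjamini-Hochberg over all of them). The fit was tested on simulated data. Tables were made with pandas 2.3.3 and numpy 2.4.6 under Python 3.11.15, and figures with matplotlib 3.10.9. The p-values measure the spread between 3 libraries per treatment.

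Deviations of salt and control libraries with the same replicate number correlated across genes at 0.175, 0.105 and 0.128, whereas the correlations between different numbers were -0.108 to -0.0391. The deviations of a group cancel out by construction, so the negative values between different numbers follow in part from the positive ones. They are therefore no separate evidence of a pairing. The labels give no pairing, so whether equal numbers belong together is not known, and the block is given only where it changes a call.

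The genes and lists were chosen with earlier results of these data known. Named were the 7 genes, up to 3 genes with the largest change in each longer list, all genes of the short lists of other PP2C and ABA-linked genes, and for each pattern the 3 most similar genes. The other alternatives were pseudocounts, filters, scalings, a constant prior variance, voom and each library left out. The authors' own fold changes and p-values were not used.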

Additional observations from a re-analysis of the deposited data

How the results depend on the processing

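Log2 fold changes of the 7 genes stayed positive in each alternative in which the gene was fitted. ClCG11G006670 could not be fitted with a filter at a mean of 1 FPKM and without salt replicate 2, since it was then below the filter. In the gene-by-gene comparisons with the values as deposited, 104 kept their side of the threshold, 10 passed only under the alternative and 3 were lost. The 3 losses were all of ClCG05G008820, without salt replicate 1, 2 or 3. Of the 10, ClCG03G016180 made up 5, and ClCG03G001230 passed only with the replicate block. The ABF gene passed with median-ratio scaling and with quantile normalization. ClCG11G006670 passed with no filter and with a constant prior variance.

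The number of the 7 genes called higher by limma was 3 as deposited and 5 with the replicate block, with median-ratio scaling and with quantile normalization, and 2 to 4 with 1 library left out. The share of all genes called higher was 13.6% as deposited, 13.7% with the block, 22.4% with median-ratio scaling and 21.6% with quantile normalization. With 1 library left out it was 9.79% to 12.7%. The causes of these shifts were not tested. The number of all genes called in either direction was 7950 as deposited, 8016 with the replicate block and 5329 to 7541 with 1 library left out. The ratio of the PP2C sum to the receptor sum, averaged within each treatment, gave a log2 ratio between treatments of 2.44. With SnRK2 kinases in place of the receptors it was 4.64. That value leaned on salt replicate 2, with a ratio of 105 against 15.6 and 13.5 in salt replicates 1 and 3. The mean over the salt libraries was 44.9, with an SD of 52.5. For the PP2C sum itself the log2 ratio between treatments was 1.38. It ran from 1.03 without control replicate 3 to 1.62 without salt replicate 3, and was 2.01 after median-ratio scaling. Among the 7 genes, depth limits only ClCG11G006670, with at most 45 fragments in a library. Some genes of the comparison lists also rest on few fragments. In the control libraries the receptor gene ClCG03G007650 had 5 to 29 and the further PP2C gene ClCG11G017290 had 4 to 66.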
